A study of Homo sapiens with 24 samples.

Results

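The 37 genes described here are the stress factor ATF4, genes that it is known to turn on under amino acid shortage, and the enzymes, transporters and tRNA synthetases that make, import and charge amino acids. They were taken as a list of gene symbols, and all 37 were found among the 34834 genes of the deposited tables. The list was chosen with earlier results of these data known. The cells were SK-MES-1, an established human line of squamous lung carcinoma, and every dish was serum-starved for 3 h before the first time point. One arm was then stimulated with 2 ng/ml TGFβ1 and the other was left untreated. The study's methods name growth factor-depleted medium for the stimulation too, so time in culture and time without growth factors cannot be told apart. Total RNA was sequenced at 0, 8, 24 and 48 h with 3 biological replicates in each of these 8 groups, so that each arm has 12 libraries. The model is a single line in culture under starvation, without tumour stroma.

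ATF4 is a transcription factor of the integrated stress response, in which kinases that sense amino acid shortage, misfolded protein, viral RNA or heme shortage phosphorylate the initiation factor eIF2α. Most translation then slows while the ATF4 mRNA is translated more, so that much of the control of ATF4 lies in its protein, which was not measured here. ATF4 pairs with C/EBP proteins on response elements near genes of amino acid synthesis, uptake and tRNA charging, and serine synthesis through PHGDH is a much studied pathway in lung cancer cells.

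The binding of ATF4 was not measured in these cells, and the letters of its response element are shown because the genes below were chosen as its known targets. The core TGATGNAA was searched on both strands of 300-base promoter windows from RefSeq, each reaching from 250 bases before to 50 bases after the first base of the gene's first listed transcript. A window was given for 31 of the 37 genes, and the core was present in 9 of these 31. The same letters were present in 238 of 12477 windows of genes tested here (1.91%) and in 1003 of all 27305 windows (3.67%). The cyclic AMP response element TGACGTCA, a palindrome that cannot overlap the core in these windows, was present in 0 of the 31 and in 3.03% of the windows of tested genes. The 9 matches are given below from 5′ to 3′ along the gene's own strand on GRCh38.p14, with the core in capitals. Its position is counted from the first base of that listed transcript, which need not be the transcript with the most TPM. In the lines for CHAC1, SLC3A2, AARS1 and MARS1 the core lies on the opposite strand and is printed as its reverse complement.
ATF3, chr1:212565205-212565234, core at -191 to -184: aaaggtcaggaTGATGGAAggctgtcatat
CHAC1, chr15:40953251-40953280, core at -209 to -202: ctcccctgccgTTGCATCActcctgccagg
MTHFD1L, chr6:150866346-150866375, core at -129 to -122: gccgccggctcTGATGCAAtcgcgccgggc
ASNS, chr7:97872458-97872487, core at -68 to -61: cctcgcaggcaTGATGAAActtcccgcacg
SLC3A2, chr11:62881725-62881748, core at 38 to 45: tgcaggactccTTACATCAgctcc
SLC7A1, chr13:29595663-29595692, core at 8 to 15: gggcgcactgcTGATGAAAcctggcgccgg
NARS1, chr18:57621804-57621833, core at 15 to 22: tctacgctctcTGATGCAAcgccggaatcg
AARS1, chr16:70289675-70289704, core at -187 to -180: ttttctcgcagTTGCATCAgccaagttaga
MARS1, chr12:57488053-57488082, core at -4 to 4: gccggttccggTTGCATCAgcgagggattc

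ASNS, NARS1 and AARS1 lie on the minus strand, as does SLC7A1, and the other 5 on the plus strand. In GENCODE 44 the ATF3 match overlapped no gene. The ASNS, CHAC1, SLC7A1, NARS1 and AARS1 matches lay in the 5′ part of at least 1 annotated transcript, in untranslated exon sequence. The AARS1 match also lay in an exon of the divergent neighbour DDX19B, where it touched coding sequence. The ASNS match also lay in an intron of another annotated gene, and the MARS1 match in an intron of ARHGAP9. MARS1 carried the core across its start site. MTHFD1L carried it in an exon of 1 of 5 overlapping transcripts, where it touched coding sequence, and in an intron of the others. SLC3A2 carried it in an exon of 7 of 34, touching coding sequence in 2, and in an intron of the others. SLC3A2-201, which held 66.7% of the gene's TPM in untreated cells at 24 h, was not among those 7. A match describes letters only. The 9 genes with the core had a median log2 arm difference of 0.82 at 24 h (range 0.39 to 1.58), and the 22 without it a median of 0.95 (range -0.70 to 1.88).

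Expression is given as TPM, a transcript abundance that accounts for transcript length and for depth, summed over the transcripts of a gene, a scale on which genes of different length can be compared. These are shares of each library's RNA, so fewer cells holding a transcript and less transcript per cell cannot be told apart. Differences are log2 differences from the normalised estimated counts (TGFβ1 minus untreated, ± SE), tested with limma voom over 17413 genes and called at a Benjamini-Hochberg adjusted p below 0.01. The libraries held between 46613589 and 77964234 estimated counts. In 4 libraries the chi-square per gene against each other replicate of the group was more than 2 times that between the other replicates, namely replicate 1 of untreated cells at 8 h (10.7 and 13.3 against 3.10), replicate 2 of untreated cells at 24 h (17.8 and 19.1 against 4.01), and replicate 2 of the TGFβ arm at 0 h (37.3 and 55.5 against 15.6) and at 24 h (33.2 and 43.5 against 6.42). The share of counts on mitochondrial genes was higher in the TGFβ arm at 0 h (4.28 to 4.59% against 3.74 to 4.19%) and at 24 h (5.07 to 5.37% against 4.65 to 5.05%) without overlap. At 8 h it was 4.56 to 5.13% against 4.06 to 4.59% and at 48 h 5.78 to 6.19% against 5.73 to 6.02%, with overlap, and its part in the results was not tested. SMAD7 and PMEPA1, direct targets of TGFβ signalling, were higher in the stimulated arm at 8, 24 and 48 h, with log2 differences of 2.37 ± 0.056 and 4.49 ± 0.041 at 24 h. The squamous markers KRT5, KRT6A, KRT14 and DSG3 were near 0, with group means of at most 0.0622 TPM, while TP63, SOX2, KRT17 and DSC3 were measured at highest group means of 36.8, 7.41, 70.5 and 1.11 TPM. Of these 4, KRT17 and DSC3 were higher and SOX2 and TP63 lower in the stimulated arm at 48 h, KRT17 with 70.5 against 5.41 TPM and SOX2 with 0.432 against 5.23 TPM. Earlier, TP63 had the opposite direction, with means of 28.8 against 16.7 TPM at 8 h and 32.0 against 16.0 TPM at 24 h. CD3E was listed at 0 TPM in all 8 groups and CDH5 reached at most 0.102 TPM, so that these T cell and endothelial markers were at or near 0. PTPRC was measured at 1.37 to 2.01 TPM and CD68 at 7.89 to 34.9 TPM over the group means, PECAM1 at 0.806 to 3.42 and VWF at 0.0392 to 0.289. At 48 h PECAM1 (3.42 against 2.73 TPM) and VWF (0.289 against 0.1999 TPM) were called higher and PTPRC lower in the stimulated arm, whereas at 24 h none of these markers of other cell types passed, and their part in the results was not tested. The neuroendocrine markers CHGA and SYP stayed at or below 0.614 TPM. The files carry 4 codes in their names, 1 for 0 and 8 h and another for 24 and 48 h in each arm, whose meaning the sources used here do not give. At each single time point code and arm cannot be told apart, whereas the changes from 0 to 8 h and from 24 to 48 h lie within a code.

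The arms drew apart after 0 h, most of all at 24 h. At 0 h the limma voom test called 0 of the 37 genes higher and 0 lower, as it did over all tested genes (0.0% in each direction). At an unadjusted p below 0.05, 1 of the 37 and 800 of the 17413 genes differed at 0 h, and edgeR and DESeq2 also called 0 of the 37. The single gene was STC2, and log2 differences at 0 h reached 0.38 in size for CHAC1 and at most 0.16 for the other genes. At 8 h, 12 genes were higher and 2 lower, against 9.14% and 7.28% of all tested genes, and 23 were higher when only the 6 libraries of that time entered the fit. At 24 h, 30 were higher and 2 lower, against 15.5% and 13.9%. At 48 h, 23 were higher and 3 lower, against 16.2% and 16.5%. Without the 4 libraries that stand apart the numbers higher at 8, 24 and 48 h were 15, 31 and 25. The 37 genes had median log2 differences of 0.17, 0.83 and 0.31 at 8, 24 and 48 h, and all tested genes had medians of -0.016, -0.015 and -0.013. Over the 3 time points together the F-test placed 33 genes higher and 2 lower (DDIT4 and SLC38A2), against 21.0% and 21.6% of all tested genes, and ALDH1L2 and SLC7A11 did not pass.

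**Figure D1:**
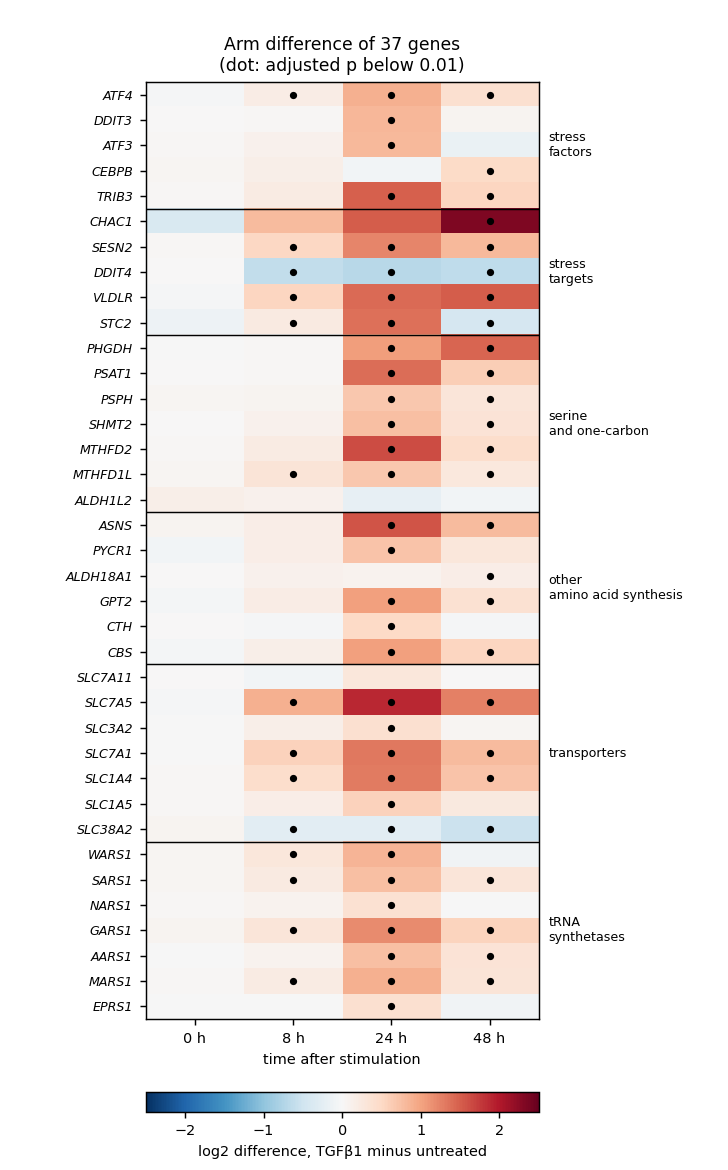
Colour gives the log2 difference between the arms (TGFβ1 minus untreated) of each of the 37 genes, in rows grouped by role, at 0, 8, 24 and 48 h, in columns, and a dot marks an adjusted p below 0.01. The 0 h column is pale except for CHAC1, the 24 h column holds 30 dots on red and 2 on blue, and the 48 h column holds 23 on red and 3 on blue.

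Among the stress factors, ATF4 itself, TRIB3, DDIT3 and ATF3 were higher at 24 h and CEBPB was higher at 48 h. ATF4 (chr22:39519695-39522683, plus strand) in untreated cells measured 365, 381 and 389.9 TPM at 0 h, 299, 298 and 294 at 8 h, 224, 220.0 and 223 at 24 h, and 260.1, 259 and 259 at 48 h. ATF4 in the TGFβ arm measured 363, 374 and 355 TPM at 0 h, 344, 322 and 318 at 8 h, 400.5, 418 and 396 at 24 h, and 340.3, 329.8 and 342 at 48 h. At 8, 24 and 48 h every stimulated library lay above every untreated one, while at 0 h the arms overlapped. ATF4 had log2 arm differences of 0.20 ± 0.035 at 8 h (adjusted p = 2.0e-04), 0.89 ± 0.035 at 24 h (adjusted p = 1.5e-14) and 0.40 ± 0.035 at 48 h (adjusted p = 6.6e-09). The 8 h call was lost with library totals in place of TMM factors (adjusted p = 0.019). Its mRNA at 24 h stood at 0.587 of the 0 h mean in untreated cells and at 1.11 of it in the TGFβ arm, ratios across file-name codes that were not tested. Processed copies of ATF4 elsewhere in the genome together drew few counts, and adding them changed no call.

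TRIB3, a pseudokinase that binds ATF4 and dampens its activity, changed most among these factors. TRIB3 in untreated cells measured 12.4, 11.7 and 12.95 TPM at 0 h, 17.4, 17.99 and 17.2 at 8 h, 15.8, 13.2 and 14.2 at 24 h, and 14.2, 13.4 and 14.6 at 48 h. TRIB3 in the TGFβ arm measured 13.5, 10.4 and 13.7 TPM at 0 h, 21.5, 19.4 and 17.96 at 8 h, 38.8, 37.8 and 40.4 at 24 h, and 19.8, 19.1 and 21.05 at 48 h. The 24 h libraries of the TGFβ arm stood far above all others, and the arms overlapped at 0 and 8 h. TRIB3 had log2 arm differences of 0.21 ± 0.086 at 8 h (adjusted p = 0.092), 1.49 ± 0.086 at 24 h (adjusted p = 8.1e-12) and 0.53 ± 0.091 at 48 h (adjusted p = 5.6e-05).

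DDIT3, the C/EBP family member also called CHOP, averaged 29.1 ± 1.5 TPM in untreated and 51.5 ± 7.5 TPM in stimulated cells at 24 h (SD, n = 3), a log2 difference of 0.83 ± 0.076 (adjusted p = 1.4e-08). ATF3, a stress-induced factor of the ATF family, averaged 4.52 ± 0.55 and 8.18 ± 2.2 TPM at 24 h, a log2 difference of 0.82 ± 0.10 (adjusted p = 5.1e-07). Neither passed at 8 h or 48 h, where DDIT3 had differences of 0.037 ± 0.077 and 0.067 ± 0.081 and ATF3 of 0.10 ± 0.11 and -0.16 ± 0.10. DDIT3 overlaps MARS1 on the opposite strand at their 3′ ends and the strand setting of the libraries is not given in the sources used here, so their counts are less certain. CEBPB, a C/EBP family factor, followed another course, with 38.04 ± 0.31 and 35.9 ± 4.4 TPM at 24 h (log2 difference -0.059 ± 0.089, adjusted p = 0.64) and 34.9 ± 0.71 and 47.6 ± 0.71 TPM at 48 h (0.47 ± 0.089, adjusted p = 1.8e-04).

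Of 5 stress targets, SESN2, VLDLR and STC2 were higher at 24 h and DDIT4 was lower. VLDLR (chr9:2621182-2660056, plus strand) encodes a receptor for lipoproteins. VLDLR in untreated cells measured 20.9, 21.7 and 21.2 TPM at 0 h, 14.8, 14.1 and 14.4 at 8 h, 13.4, 11.7 and 12.9 at 24 h, and 8.50, 7.82 and 9.05 at 48 h. VLDLR in the TGFβ arm measured 19.1, 21.9 and 20.5 TPM at 0 h, 21.9, 19.3 and 20.1 at 8 h, 33.1, 33.96 and 32.2 at 24 h, and 22.8, 23.5 and 24.2 at 48 h. The arms were apart from 8 h on, and at 48 h the lowest stimulated library was more than 2 times the highest untreated one. VLDLR had log2 arm differences of 0.53 ± 0.045 at 8 h (adjusted p = 8.6e-09), 1.42 ± 0.045 at 24 h (adjusted p = 3.8e-16) and 1.51 ± 0.048 at 48 h (adjusted p = 2.8e-16).

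SESN2 encodes sestrin 2, a leucine-binding protein that restrains the growth kinase complex mTORC1. SESN2 in untreated cells measured 12.4, 11.2 and 13.1 TPM at 0 h, 8.18, 8.28 and 7.63 at 8 h, 7.83, 6.72 and 7.54 at 24 h, and 6.81, 6.88 and 6.57 at 48 h. SESN2 in the TGFβ arm measured 12.6, 10.7 and 13.4 TPM at 0 h, 12.03, 11.1 and 10.2 at 8 h, 17.6, 15.3 and 17.5 at 24 h, and 11.3, 11.9 and 11.8 at 48 h. Stimulated libraries were above untreated ones at 8, 24 and 48 h. SESN2 had log2 arm differences of 0.52 ± 0.092 at 8 h (adjusted p = 2.0e-04), 1.22 ± 0.092 at 24 h (adjusted p = 6.4e-10) and 0.81 ± 0.10 at 48 h (adjusted p = 6.4e-07).

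STC2, which encodes the secreted glycoprotein stanniocalcin 2, crossed over. STC2 in untreated cells measured 409.7, 339.5 and 391 TPM at 0 h, 80.9, 72.2 and 75.5 at 8 h, 27.8, 24.8 and 30.1 at 24 h, and 71.8, 69.1 and 66.5 at 48 h. STC2 in the TGFβ arm measured 325, 277 and 338 TPM at 0 h, 97.9, 82.9 and 81.6 at 8 h, 72.2, 54.2 and 65.1 at 24 h, and 50.2, 48.3 and 46.7 at 48 h. Both arms fell steeply from 0 h, the stimulated libraries were the higher at 8 and 24 h, and at 48 h they were the lower. STC2 had log2 arm differences of 0.22 ± 0.057 at 8 h (adjusted p = 0.0053), 1.38 ± 0.060 at 24 h (adjusted p = 7.2e-14) and -0.43 ± 0.059 at 48 h (adjusted p = 3.7e-06). The 8 h call was lost in 10 of 37 alternative settings, among them the fits without replicate 1 or 2 of either arm at 8 h. At 0 h the 3 stimulated libraries already lay below the 3 untreated ones, with means of 313.5 against 379.9 TPM. This 0 h gap enters the arm comparison of the STC2 change from 0 to 8 h given below.

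CHAC1 (chr15:40952962-40956512, plus strand), an enzyme that breaks down glutathione, had the largest fitted difference and the widest spread. CHAC1 in untreated cells measured 17.3, 13.99 and 17.8 TPM at 0 h, 5.94, 4.17 and 5.76 at 8 h, 3.05, 3.43 and 2.93 at 24 h, and 0.820, 3.99 and 2.06 at 48 h. CHAC1 in the TGFβ arm measured 20.6, 6.03 and 15.5 TPM at 0 h, 9.93, 11.4 and 7.34 at 8 h, 11.6, 3.84 and 11.02 at 24 h, and 8.97, 6.27 and 6.12 at 48 h. Replicate 2 of the stimulated arm was well below its neighbours at 0 and at 24 h, and replicate 1 of the untreated arm was the lowest library at 48 h. CHAC1 had log2 arm differences of 0.80 ± 0.46 at 8 h (adjusted p = 0.24), 1.52 ± 0.55 at 24 h (adjusted p = 0.032) and 2.33 ± 0.68 at 48 h (adjusted p = 0.0081). Without untreated replicate 1 the 48 h difference was 1.52 (adjusted p = 0.074) and the F-test was missed (adjusted p = 0.013). The 48 h call was lost in 15 of 37 alternative settings, 13 of which left out 1 library, each of the 6 libraries of that time included. Without the 4 libraries that stand apart the 24 h difference was 1.96 (adjusted p = 4.8e-04).

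DDIT4, also called REDD1 and an inhibitor of mTORC1, was the stress target called lower at all 3 times. DDIT4 averaged 73.00 ± 1.5, 127 ± 5.9 and 91.2 ± 4.0 TPM at 8, 24 and 48 h in untreated cells. DDIT4 in the TGFβ arm averaged 45.6 ± 1.9, 76.1 ± 5.5 and 57.4 ± 1.4 TPM. The stimulated libraries lay below the untreated ones at all 3 times. DDIT4 had log2 arm differences of -0.62 ± 0.071 at 8 h (adjusted p = 7.6e-07), -0.70 ± 0.068 at 24 h (adjusted p = 3.4e-08) and -0.64 ± 0.071 at 48 h (adjusted p = 2.1e-07).

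**Figure D2:**
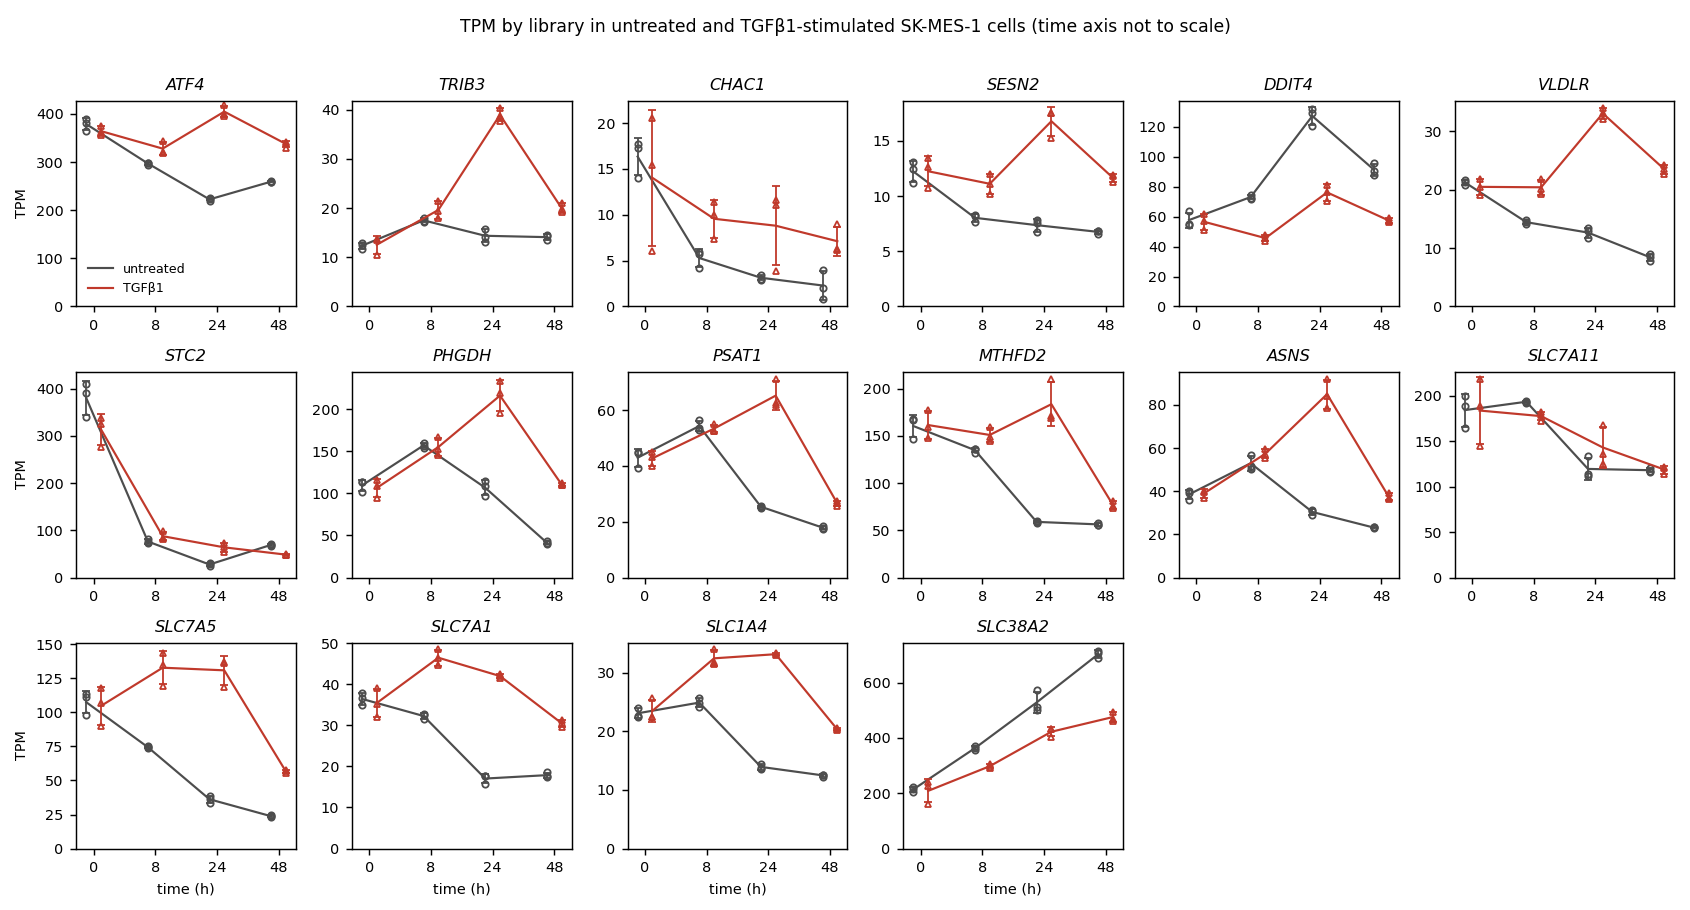
Each panel plots the TPM of 1 gene (vertical axis from 0) at 0, 8, 24 and 48 h (horizontal axis, evenly spaced), with circles for untreated libraries, triangles for the TGFβ arm, lines through the means and bars for the SD of 3 replicates. For ATF4, TRIB3, PSAT1, MTHFD2 and ASNS the gap is widest at 24 h, for PHGDH it remains wide at 48 h, SLC7A11 shows overlapping arms at 24 h, and DDIT4 and SLC38A2 run lower with TGFβ1.

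In the serine and one-carbon pathway, 6 of 7 genes were higher at 24 h and the same 6 at 48 h, and 1 (MTHFD1L) was higher at 8 h. PHGDH (chr1:119648411-119744218, plus strand) catalyses the entry step of serine synthesis from glycolysis. PHGDH in untreated cells measured 113, 102 and 113 TPM at 0 h, 154, 156 and 160.3 at 8 h, 115, 97.2 and 108 at 24 h, and 40.6, 40.3 and 43.2 at 48 h. PHGDH in the TGFβ arm measured 109, 94.5 and 115 TPM at 0 h, 166, 153 and 146 at 8 h, 233, 196 and 219 at 24 h, and 109.6, 109.8 and 112 at 48 h. Both arms were raised at 8 h and overlapped there, and at 24 h the stimulated libraries were all above the untreated ones. PHGDH had log2 arm differences of 0.037 ± 0.083 at 8 h (adjusted p = 0.80), 1.05 ± 0.084 at 24 h (adjusted p = 1.6e-09) and 1.45 ± 0.091 at 48 h (adjusted p = 2.6e-11). At 48 h the stimulated cells were back near their 0 h level (1.04 of the mean) and the untreated cells stood at 0.378 of theirs.

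PSAT1 (chr9:78297125-78330093, plus strand) carries out the transamination that follows PHGDH. PSAT1 in untreated cells measured 39.3, 44.7 and 45.00 TPM at 0 h, 52.9, 53.7 and 56.4 at 8 h, 24.9, 25.8 and 25.4 at 24 h, and 17.8, 18.5 and 17.4 at 48 h. PSAT1 in the TGFβ arm measured 39.98, 45.1 and 43.2 TPM at 0 h, 55.00, 52.6 and 52.7 at 8 h, 62.5, 71.2 and 62.02 at 24 h, and 25.6, 27.3 and 26.8 at 48 h. The arms coincided at 8 h and were fully apart at 24 and 48 h. PSAT1 had log2 arm differences of 0.026 ± 0.047 at 8 h (adjusted p = 0.76), 1.41 ± 0.050 at 24 h (adjusted p = 2.3e-15) and 0.62 ± 0.055 at 48 h (adjusted p = 5.6e-09). PSPH, the phosphatase that releases serine, had smaller differences of 0.67 ± 0.040 (adjusted p = 1.5e-11) at 24 h and 0.30 ± 0.042 (adjusted p = 4.5e-06) at 48 h, and adding the counts of its copy PSPHP1 changed no call.

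MTHFD2 (chr2:74186172-74217565, plus strand) is a folate dehydrogenase of the mitochondrion that uses the one-carbon units released from serine. MTHFD2 in untreated cells measured 147, 168 and 167 TPM at 0 h, 132, 136 and 137 at 8 h, 58.8, 59.8 and 58.3 at 24 h, and 55.2, 55.6 and 58.1 at 48 h. MTHFD2 in the TGFβ arm measured 148, 177 and 159.6 TPM at 0 h, 159.9, 148 and 145 at 8 h, 169.5, 210.5 and 171 at 24 h, and 75.4, 73.5 and 81.5 at 48 h. At 24 h the lowest stimulated library was more than 2 times the highest untreated one, and at 48 h both arms were below their 0 h level. MTHFD2 had log2 arm differences of 0.21 ± 0.063 at 8 h (adjusted p = 0.021), 1.63 ± 0.066 at 24 h (adjusted p = 2.1e-14) and 0.44 ± 0.069 at 48 h (adjusted p = 2.0e-05).

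SHMT2, which splits serine into glycine and a one-carbon unit in mitochondria, averaged 106 ± 7.6 and 173 ± 18.6 TPM in untreated and stimulated cells at 24 h, a log2 difference of 0.75 ± 0.058 (adjusted p = 9.3e-10). MTHFD1L, the mitochondrial synthetase that releases formate, had differences of 0.32 ± 0.039 at 8 h (adjusted p = 1.7e-06), 0.67 ± 0.040 at 24 h (adjusted p = 1.2e-11) and 0.27 ± 0.041 at 48 h (adjusted p = 1.4e-05). ALDH1L2, which oxidises formyl-folate in mitochondria, was hardly expressed, with group means between 0.235 and 0.463 TPM. Its differences of 0.10 ± 0.15, -0.21 ± 0.14 and -0.065 ± 0.14 did not pass (F-test adjusted p = 0.48).

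The other 6 amino acid enzymes were led by ASNS (chr7:97851677-97872542, minus strand), asparagine synthetase, whose promoter core is printed above. ASNS in untreated cells measured 36.1, 40.1 and 39.3 TPM at 0 h, 50.5, 51.6 and 56.9 at 8 h, 31.5, 30.7 and 29.02 at 24 h, and 23.4, 22.8 and 23.2 at 48 h. ASNS in the TGFβ arm measured 36.8, 39.8 and 40.3 TPM at 0 h, 59.6, 57.03 and 55.6 at 8 h, 78.6, 92.02 and 84.4 at 24 h, and 36.4, 36.96 and 39.2 at 48 h. Both arms were raised at 8 h and overlapped there, and at 24 h the untreated libraries were lower again and the stimulated ones higher still. ASNS had log2 arm differences of 0.17 ± 0.052 at 8 h (adjusted p = 0.016), 1.58 ± 0.054 at 24 h (adjusted p = 1.2e-15) and 0.80 ± 0.058 at 48 h (adjusted p = 3.2e-10).

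GPT2, the mitochondrial alanine transaminase, was higher at 24 h by 1.03 ± 0.078 (adjusted p = 6.3e-10) and at 48 h by 0.37 ± 0.076 (adjusted p = 4.0e-04), the latter call being lost in 3 alternative settings. CBS and CTH perform the transsulfuration steps that lead from homocysteine to cysteine. CBS averaged 65.4 ± 7.2 and 131 ± 14.5 TPM at 24 h, a difference of 1.02 ± 0.090 (adjusted p = 7.9e-09), and its counts are uncertain because the near-identical copy CBSL could take part of them. CTH was higher by 0.49 ± 0.075 (adjusted p = 1.9e-05) at 24 h and had a difference of -0.038 ± 0.081 at 48 h that did not pass. For proline synthesis, PYCR1 was higher by 0.72 ± 0.10 (adjusted p = 8.2e-06) at 24 h and ALDH18A1 by 0.17 ± 0.036 (adjusted p = 6.1e-04) at 48 h, a call lost in 3 alternative settings.

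Among the 7 transporters, SLC7A5, SLC7A1 and SLC1A4 were higher at 8, 24 and 48 h, SLC3A2 and SLC1A5 were higher at 24 h, SLC38A2 was lower at all 3 times, and SLC7A11 did not pass at any. SLC7A5 (chr16:87830023-87869507, minus strand) encodes LAT1, which imports leucine and other large neutral amino acids. SLC7A5 in untreated cells measured 114, 98.1 and 111 TPM at 0 h, 73.8, 74.3 and 75.3 at 8 h, 38.7, 33.6 and 36.4 at 24 h, and 24.6, 23.7 and 22.95 at 48 h. SLC7A5 in the TGFβ arm measured 107, 89.8 and 118 TPM at 0 h, 144, 135 and 119.6 at 8 h, 136, 119 and 137 at 24 h, and 56.7, 57.5 and 55.6 at 48 h. The untreated libraries were lower at each later time and the stimulated ones were raised at 8 h, and the arms did not overlap at 8, 24 or 48 h. SLC7A5 had log2 arm differences of 0.89 ± 0.10 at 8 h (adjusted p = 3.9e-07), 1.89 ± 0.10 at 24 h (adjusted p = 2.3e-12) and 1.26 ± 0.11 at 48 h (adjusted p = 3.3e-09). Adding the counts of the copies SLC7A5P1 and SLC7A5P2 changed no call.

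SLC7A1 imports arginine and lysine, and its promoter window holds the core just after the start site. SLC7A1 in untreated cells measured 36.6, 34.8 and 37.9 TPM at 0 h, 32.9, 32.4 and 31.5 at 8 h, 17.7, 15.8 and 17.6 at 24 h, and 18.6, 17.6 and 17.4 at 48 h. SLC7A1 in the TGFβ arm measured 32.04, 35.2 and 39.00 TPM at 0 h, 48.5, 46.3 and 44.6 at 8 h, 42.5, 41.4 and 42.1 at 24 h, and 31.4, 29.6 and 30.5 at 48 h. Stimulated libraries were above untreated ones from 8 h on. SLC7A1 had log2 arm differences of 0.58 ± 0.052 at 8 h (adjusted p = 1.8e-08), 1.33 ± 0.054 at 24 h (adjusted p = 2.5e-14) and 0.79 ± 0.055 at 48 h (adjusted p = 1.6e-10).

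SLC1A4, also called ASCT1, carries serine, alanine and cysteine. SLC1A4 in untreated cells measured 22.5, 22.6 and 24.02 TPM at 0 h, 24.1, 25.7 and 24.8 at 8 h, 14.4, 13.6 and 13.8 at 24 h, and 12.6, 12.6 and 12.2 at 48 h. SLC1A4 in the TGFβ arm measured 22.4, 22.4 and 25.6 TPM at 0 h, 34.01, 31.8 and 31.5 at 8 h, 33.1, 33.3 and 32.95 at 24 h, and 20.5, 20.1 and 20.3 at 48 h. Replicates were tight, and the arms were apart at 8, 24 and 48 h. SLC1A4 had log2 arm differences of 0.45 ± 0.048 at 8 h (adjusted p = 2.8e-07), 1.30 ± 0.050 at 24 h (adjusted p = 9.4e-15) and 0.72 ± 0.053 at 48 h (adjusted p = 3.2e-10).

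SLC3A2, the heavy chain that pairs with SLC7A5 and with SLC7A11, was higher at 24 h by 0.39 ± 0.078 (adjusted p = 3.6e-04), a smaller difference than that of SLC7A5, and the call was lost in 1 alternative setting. SLC1A5, the glutamine carrier ASCT2, was higher at 24 h by 0.58 ± 0.094 (adjusted p = 3.8e-05). SLC38A2, the neutral amino acid carrier SNAT2, is a known ATF4 target and was lower, with 703 ± 14.2 TPM in untreated and 476 ± 17.4 TPM in stimulated cells at 48 h. SLC38A2 had log2 arm differences of -0.27 ± 0.067 at 8 h (adjusted p = 0.0045), -0.26 ± 0.066 at 24 h (adjusted p = 0.0037) and -0.53 ± 0.066 at 48 h (adjusted p = 9.0e-07). Its 8 h call was lost in 9 of 37 alternative settings, among them each fit without 1 of the 6 libraries of that time. Its 24 h call was lost in 5, among them the fits without untreated replicate 2 (-0.19, adjusted p = 0.030) and without stimulated replicate 3 at 24 h.

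SLC7A11 (chr4:138164097-138242349, minus strand), the cystine importer that supplies glutathione synthesis, is also a known ATF4 target and did not pass here. Its 24 h difference was called in 4 of 37 alternative settings, 3 of which left out 1 library. Its 8 h difference was called, as lower, in 1 alternative setting. SLC7A11 in untreated cells measured 164, 199 and 189 TPM at 0 h, 193, 194 and 192 at 8 h, 113, 134 and 111 at 24 h, and 120.2, 116 and 118 at 48 h. SLC7A11 in the TGFβ arm measured 144, 218 and 188 TPM at 0 h, 182, 172 and 178 at 8 h, 125, 168 and 136 at 24 h, and 114, 121 and 122 at 48 h. The arms overlapped at 0, 24 and 48 h, and at 8 h the stimulated libraries were slightly the lower. SLC7A11 had log2 arm differences of -0.076 ± 0.094 at 8 h (adjusted p = 0.64), 0.28 ± 0.10 at 24 h (adjusted p = 0.025) and 0.0039 ± 0.10 at 48 h (adjusted p = 0.98), and its F-test adjusted p was 0.089.

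All 7 cytosolic tRNA synthetases of the list, which load amino acids onto their tRNAs, were higher at 24 h. Their log2 differences ran from 0.39 ± 0.063 for NARS1 to 1.18 ± 0.044 for GARS1. GARS1, the glycine enzyme, averaged 153 ± 7.3 and 339 ± 30.8 TPM in untreated and stimulated cells at 24 h and had differences of 0.29 ± 0.043 at 8 h (adjusted p = 1.9e-05), 1.18 ± 0.044 at 24 h (adjusted p = 5.7e-15) and 0.55 ± 0.045 at 48 h (adjusted p = 1.8e-09). Its 8 h call was lost in 2 alternative settings. MARS1, the methionine enzyme, had differences of 0.21 ± 0.044 at 8 h (adjusted p = 0.0013), 0.89 ± 0.045 at 24 h (adjusted p = 1.0e-12) and 0.31 ± 0.046 at 48 h (adjusted p = 8.9e-06), and its 8 h call was lost in 4.

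WARS1, the tryptophan enzyme, was higher by 0.27 ± 0.033 (adjusted p = 1.3e-06) at 8 h and 0.85 ± 0.033 (adjusted p = 1.1e-14) at 24 h, and its 48 h difference of -0.081 ± 0.034 did not pass. SARS1, the serine enzyme, was higher at 8 h by 0.23 ± 0.038 (adjusted p = 9.2e-05), at 24 h by 0.75 ± 0.038 (adjusted p = 8.9e-13) and at 48 h by 0.30 ± 0.039 (adjusted p = 2.0e-06). AARS1, the alanine enzyme, was higher by 0.75 ± 0.045 (adjusted p = 1.2e-11) at 24 h and 0.33 ± 0.046 (adjusted p = 3.7e-06) at 48 h. NARS1 and EPRS1, the asparagine enzyme and the fused glutamate and proline enzyme, passed at 24 h with 0.39 ± 0.063 (adjusted p = 3.6e-05) and 0.40 ± 0.083 (adjusted p = 6.0e-04). At 48 h their differences of -0.0079 ± 0.064 and -0.082 ± 0.085 did not pass, and the 24 h call of EPRS1 was lost in 3 alternative settings.

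The timing of the differences varied between the genes. The largest difference in size fell at 24 h for 31 genes and at 48 h for 6, counts for which no share over all tested genes was computed. Of the 37, 14 genes were called at least 2-fold higher at 24 h and 4 at 48 h, against 3.47% and 4.11% of all tested genes. At 24 and 48 h the same 20 genes were called higher, against 10.4%, and 9 of those higher at 24 h did not pass at 48 h, against 4.62%. The change in the arm difference was tested directly. From 8 to 24 h, across file-name codes, it widened for 25 genes, against 4.16% of all tested genes. It narrowed for 0 of 37 (limma voom, and 0 also at an unadjusted p below 0.05, by edgeR and by DESeq2), against 2.54%. From 24 to 48 h, within file-name codes, it went down for 23 genes, against 5.63%, and up for 1 (CEBPB), against 3.51%, the latter a call lost in 11 of the 24 fits that left out 1 library (adjusted p between 0.010 and 0.020). The 8 to 24 h and 24 to 48 h tests share the 24 h libraries. From 0 to 8 h, also within codes, the stimulated arm gained on the untreated arm for 8 genes, against 5.07%, and lost for 1 (DDIT4), against 2.84%. Without replicate 1 of the TGFβ arm at 8 h the 8 became 5, since ATF4, STC2 and WARS1 no longer passed, and without replicate 1 of that arm at 0 h SLC38A2 joined DDIT4. SLC7A5 gained 0.92 ± 0.14 (adjusted p = 5.6e-05), SLC7A1 0.59 ± 0.074 (adjusted p = 6.0e-06), VLDLR 0.55 ± 0.063 (adjusted p = 1.8e-06) and SLC1A4 0.43 ± 0.069 (adjusted p = 1.4e-04) on the log2 scale, and STC2, MTHFD1L, ATF4 and WARS1 between 0.22 ± 0.047 and 0.35 ± 0.076. DDIT4 had the opposite sign (-0.63 ± 0.10, adjusted p = 1.3e-04). On log2(TPM + 1) and on log2(TPM + 0.1) the gain was called for 4 genes in place of 8.

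Within untreated cells, more of the 37 genes fell than rose from 0 to 48 h, but not from 0 to 8 h. Between 0 and 8 h, 14 genes rose and 11 fell, against 13.2% and 12.7% of all tested genes. Those that rose included ASNS (0.52 ± 0.054, adjusted p = 1.8e-07), CBS (0.75 ± 0.093, adjusted p = 1.9e-06), PHGDH (0.50 ± 0.085, adjusted p = 7.7e-05) and SLC38A2 (0.73 ± 0.069, adjusted p = 4.2e-08). STC2 and ATF3 fell, with log2 changes of -2.40 ± 0.054 (adjusted p = 7.7e-18) and -1.49 ± 0.10 (adjusted p = 1.8e-10). Between 24 and 48 h, 5 rose and 11 fell, against 14.8% and 13.7%, and PHGDH fell furthest (-1.43 ± 0.091, adjusted p = 6.7e-11) while STC2 rose (1.35 ± 0.060, adjusted p = 2.4e-13). From 0 to 48 h, across codes, 6 rose and 26 fell, against 28.1% and 27.1%, with a median log2 change of -0.55. CHAC1 (-3.63 ± 0.64, adjusted p = 4.2e-05), STC2 (-2.47 ± 0.054, adjusted p = 7.3e-19) and SLC7A5 (-2.28 ± 0.10, adjusted p = 6.0e-14) fell furthest, and SLC38A2 rose furthest (1.61 ± 0.067, adjusted p = 1.5e-14).

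Within the TGFβ arm 21 of the 37 genes rose from 0 to 8 h and 30 fell from 24 to 48 h. Between 0 and 8 h, 21 genes rose and 6 fell, against 17.6% and 16.3% of all tested genes. CBS rose by 0.95 ± 0.093 (adjusted p = 4.3e-08), GPT2 by 0.66 ± 0.077 (adjusted p = 4.6e-07) and ASNS by 0.62 ± 0.053 (adjusted p = 5.3e-09). Between 24 and 48 h, 30 fell, against 13.4%, and 1 rose (CEBPB, 0.35 ± 0.089, adjusted p = 0.0037), against 12.4%. PSAT1, ASNS and MTHFD2 fell, with log2 changes of -1.36 ± 0.050 (adjusted p = 3.8e-14), -1.34 ± 0.054 (adjusted p = 9.9e-14) and -1.31 ± 0.066 (adjusted p = 3.1e-12). The call on CEBPB was lost without replicate 2 or 3 of the TGFβ arm at 24 h or any of its 3 replicates at 48 h (adjusted p between 0.012 and 0.025), whereas 28 to 30 genes were called as falling whichever library was left out. From 0 to 48 h, across codes, 9 rose and 20 fell, against 29.9% and 28.1%, with a median log2 change of -0.21, and 20 genes passed as lower at 48 h than at 0 h in both arms, against 21.1% of all tested genes. PHGDH and VLDLR, which fell in untreated cells (-1.47 ± 0.091, adjusted p = 8.6e-12 and -1.47 ± 0.048, adjusted p = 2.4e-16), had changes of -0.013 ± 0.087 and 0.056 ± 0.044 in the TGFβ arm that did not pass.

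**Figure D3:**
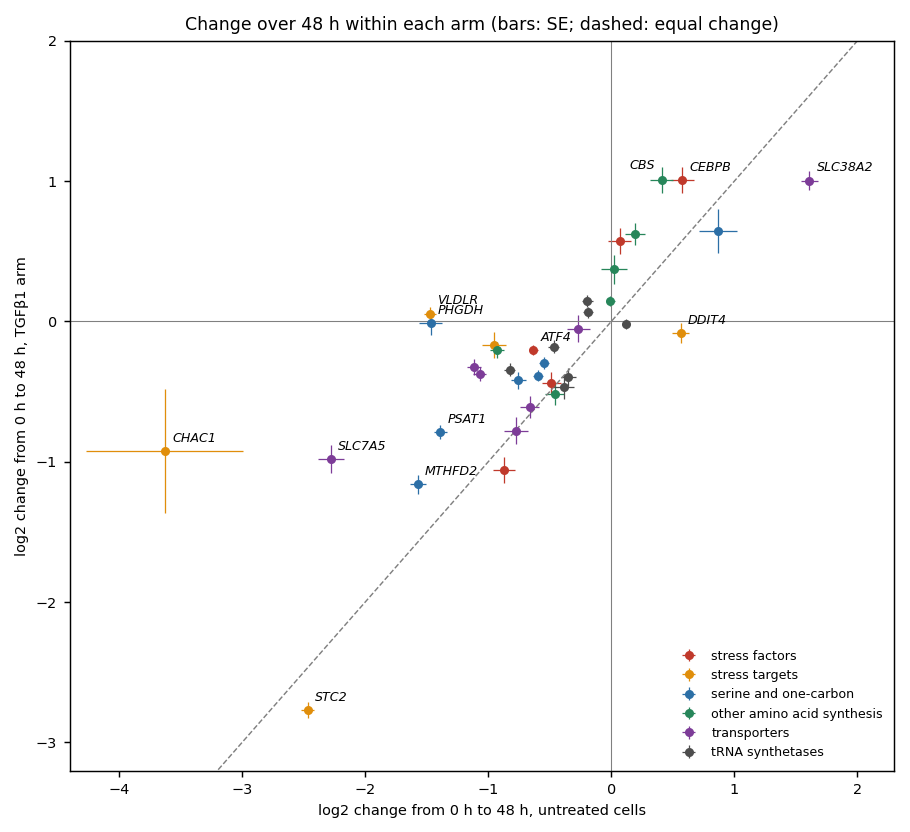
Each point is 1 of the 37 genes, with its log2 change from 0 to 48 h in untreated cells on the horizontal axis and in the TGFβ arm on the vertical axis, bars for the SE and colour for the role. Most points lie left of 0 and above the dashed line of equal change, PHGDH and VLDLR sit near -1.47 on the horizontal axis and near 0 on the vertical one, and SLC38A2, DDIT4 and STC2 are among the points below the line.

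Levels at the outset differed widely between genes on the TPM scale. In untreated cells at 0 h STC2 (379.9 ± 36.3 TPM), ATF4 (379 ± 12.5) and SLC3A2 (376 ± 6.6) were highest and did not differ beyond their spread. ATF3 (8.64 ± 0.85), GPT2 (8.06 ± 1.4) and ALDH1L2 (0.235 ± 0.071) were lowest. By 48 h SLC38A2 was the highest gene of the group in both arms.

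Other genes of the same pathways are given beside the 15.5% higher and 13.9% lower of all genes at 24 h, and their difference from the 37 was not tested. These lists too were chosen with earlier results of these data known. Of 17 regulators and further markers of the integrated stress response 16 were tested, and at 24 h 4 were higher and 3 lower, with a median log2 difference of 0.089. CEBPG, the partner of ATF4 on response elements, was higher by 1.08 ± 0.066 (adjusted p = 2.1e-11), as was NUPR1, a stress-induced nuclear protein, by 1.03 ± 0.10 (adjusted p = 2.9e-08). GDF15, a secreted TGFβ family member that is often induced with ATF4, was lower, with log2 differences of -1.48 ± 0.18 (adjusted p = 7.9e-07) at 24 h and -2.66 ± 0.16 (adjusted p = 1.4e-11) at 48 h. FGF21 was too low to test.

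Of 11 other serine, glycine and folate genes, 1 was higher and 4 lower at 24 h. The largely cytosolic and nuclear enzymes SHMT1 and TYMS had differences of -0.38 ± 0.059 (adjusted p = 2.5e-05) and -0.012 ± 0.046 (adjusted p = 0.86) at 24 h, and at 48 h both were lower, TYMS with a log2 difference of -0.59 ± 0.053 (adjusted p = 7.1e-09). Of 13 other cytosolic tRNA synthetases, 5 passed at 24 h, all of them higher, among them IARS1 (0.89 ± 0.061, adjusted p = 1.4e-10), YARS1 (0.78 ± 0.042, adjusted p = 2.4e-12) and TARS1 (0.63 ± 0.053, adjusted p = 3.3e-09). Of 17 mitochondrial tRNA synthetases, 1 passed at 24 h, TARS2, which was lower (-0.18 ± 0.048, adjusted p = 0.0049). At 48 h MARS2, the mitochondrial methionine enzyme, was lower (log2 difference -0.56 ± 0.068, adjusted p = 7.2e-07), and YARS2 had a 24 h difference of 0.17 ± 0.057 (adjusted p = 0.021).

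Of 18 other amino acid transporters 17 were tested, and 6 were higher and 3 lower at 24 h. The glutamine carrier SLC38A5 was higher by 1.24 ± 0.077 (adjusted p = 2.8e-11), the glycine carrier SLC6A9 was higher by 1.15 ± 0.10 (adjusted p = 8.8e-09), and the glutamate carrier SLC1A1 was lower (log2 difference -0.75 ± 0.058, adjusted p = 8.0e-10). SLC7A3 was too low to test. Of 16 other enzymes of proline, glutamine, aspartate and cysteine, 4 were higher and 4 lower. The branched-chain transaminase BCAT1 was higher by 0.86 ± 0.10 (adjusted p = 3.0e-07), and GCLC, which starts glutathione synthesis from cysteine, was lower (log2 difference -1.16 ± 0.15, adjusted p = 3.1e-06).

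**Figure D4:**
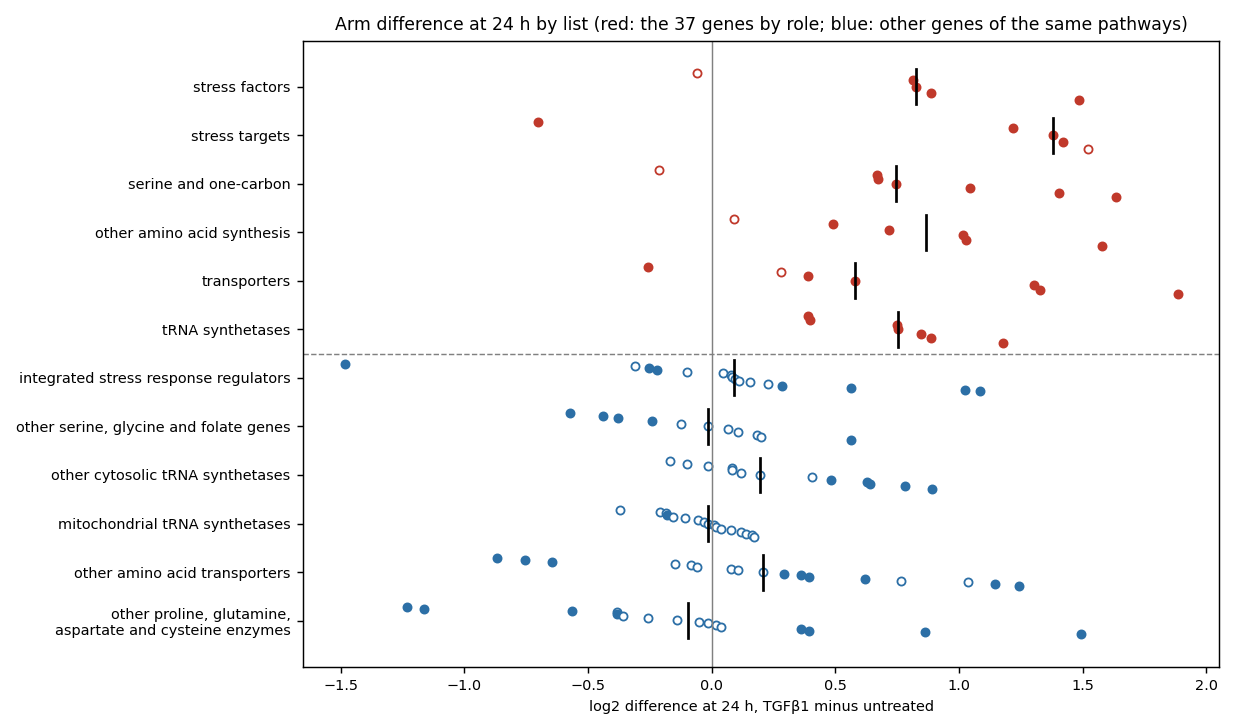
Each dot is 1 gene placed by its log2 difference at 24 h (horizontal axis, TGFβ1 minus untreated), filled where the adjusted p was below 0.01, with a black line at the median of its list. In the 6 upper rows, which hold the 37 genes, medians lie between 0.58 and 1.38, and in the 6 lower rows, which hold other genes of the same pathways, between -0.094 and 0.21.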

How the data were processed

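Total RNA was sequenced by the authors (Illumina) and pseudoaligned with kallisto 0.43.0 to the human Ensembl transcriptome (GRCh38). Each library has its own table of 173259 transcripts. As deposited, the estimated counts are kallisto's expected reads, unnormalised and often fractional. The authors' TPM column corrects them for transcript length and gives every library the same sum. The effective lengths (unit: bases) served in 1 alternative.

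Transcripts were matched without version to GENCODE 44 (155518, 89.8%), summed per gene and rounded. Genes with at least 10 counts in at least 3 libraries were tested with limma 3.58.1 (voom weights, TMM factors, 1 mean per group, all 24 libraries) in R 4.3.3, the test that the study's methods name. p-values were adjusted by Benjamini-Hochberg over 17413 genes. The 37 genes, their roles and all other lists were chosen with earlier results of these data known. Values in every library are given for the 12 genes past the F-test with the largest arm differences, and for ATF4, PHGDH, ASNS and SLC7A11. Up to 3 genes per other list are named, those with the lowest F-test p. Some genes that the rule names are not reported here. Alternatives were edgeR 4.0.16, DESeq2 1.42.0, other normalisations, filters and transcripts, log2(TPM + 1), log2(TPM + 0.1), a replicate block, added copies and each library left out. The tests were tried on simulated counts first. Tables were made with pandas 2.3.3 and numpy 2.4.6 under Python 3.11.15, and plots with matplotlib 3.10.9. Depth ran from 46613589 to 77964234 estimated counts per library (median 54120879). Replicates differed by more than counting noise (chi-square per gene 3.10 to 55.5 over 24 pairs). Leaving out 4 libraries that stand apart together was an alternative chosen after seeing the data.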

Additional observations from a re-analysis of the deposited data

Results flagged for a closer look

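The gap between the arms was not constant in time. The test of the change in the log2 arm difference from 8 to 24 h (limma voom, Benjamini-Hochberg adjusted p below 0.01) singled out 25 of the 37 genes, in each case with a gain of the TGFβ arm. This change crosses file-name codes, which cannot be told apart from the arms here. Among the stress factors the gain was 0.69 for ATF4, 0.79 for DDIT3, 0.72 for ATF3 and 1.28 for TRIB3. The stress targets showed 0.70 for SESN2, 0.89 for VLDLR and 1.16 for STC2. In serine and one-carbon metabolism it was 1.01 for PHGDH, 1.38 for PSAT1, 0.60 for PSPH, 0.63 for SHMT2, 1.43 for MTHFD2 and 0.35 for MTHFD1L. The other amino acid enzymes showed 1.40 for ASNS, 0.84 for GPT2, 0.53 for CTH and 0.88 for CBS. Transporters showed 1.00 for SLC7A5, 0.74 for SLC7A1 and 0.86 for SLC1A4. For tRNA synthetases it was 0.57 for WARS1, 0.52 for SARS1, 0.88 for GARS1, 0.66 for AARS1 and 0.68 for MARS1.

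The same test from 24 to 48 h, which lies within file-name codes, singled out 24 genes. CEBPB alone among them gained, by 0.53, a call lost in 11 of the 24 fits without 1 library, and the others lost ground. Among stress factors the change was -0.49 for ATF4, -0.76 for DDIT3, -0.97 for ATF3, 0.53 for CEBPB and -0.95 for TRIB3. The stress target STC2 had -1.81. Serine and one-carbon genes had -0.78 for PSAT1, -0.37 for PSPH, -0.40 for SHMT2, -1.19 for MTHFD2 and -0.40 for MTHFD1L. For the amino acid enzymes the values were -0.78 for ASNS, -0.66 for GPT2 and -0.53 for CTH. Transporters had -0.62 for SLC7A5, -0.54 for SLC7A1 and -0.59 for SLC1A4. Synthetases had -0.93 for WARS1, -0.45 for SARS1, -0.40 for NARS1, -0.63 for GARS1, -0.42 for AARS1, -0.57 for MARS1 and -0.48 for EPRS1.

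From 0 to 8 h the 2 arms moved differently for 9 genes, again within codes. The stimulated minus untreated change was 0.22 for ATF4. Stress targets had -0.63 for DDIT4, 0.55 for VLDLR and 0.35 for STC2. The folate enzyme MTHFD1L had 0.26. Transporters had 0.92 for SLC7A5, 0.59 for SLC7A1 and 0.43 for SLC1A4. The synthetase WARS1 had 0.22. Single values were not tested for outliers, since each group has 3 replicates.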

How the results depend on the processing

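No called value changed direction under any setting run. Of the 72 called arm differences at 8, 24 and 48 h, 61 were called in all 37 alternative settings and 11 were lost in at least 1, namely ATF4, STC2, SLC38A2, GARS1 and MARS1 at 8 h, SLC3A2, SLC38A2 and EPRS1 at 24 h, and CHAC1, GPT2 and ALDH18A1 at 48 h. The 8 h call of ATF4 was lost with library totals (adjusted p = 0.019), and that of MARS1 without TGFβ replicate 1 (adjusted p = 0.012). The causes of the shifts below were not tested.

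With only the 6 libraries of the time point, 23 genes were higher at 8 h in place of 12 and 1 was lower at 24 h in place of 2. On log2(TPM + 1) and on log2(TPM + 0.1), 1 gene was lower at 8 h and 1 at 24 h in place of 2 each, and the gain from 0 to 8 h was called for 4 genes in place of 8. On log2(TPM + 0.1) the fall from 0 to 8 h in untreated cells was called for 7 genes in place of 11. Length-scaled counts left 1 gene lower at 8 h. With library totals the gain from 0 to 8 h was called for 5 genes. The rise from 24 to 48 h in the TGFβ arm was called for 2 genes in place of 1 with DESeq2, library totals and upper-quartile factors, ALDH18A1 being the other. The loss from 0 to 8 h was called for 2 genes in place of 1 with DESeq2, upper-quartile factors, protein-coding transcripts only and the replicate block, SLC38A2 being the other.

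With 1 library left out in turn, 10 to 14 genes were higher at 8 h. At 24 h the range was 30 to 32, and it was 22 to 24 at 48 h. At 8 h and at 24 h, 1 to 2 genes were lower, and 3 at 48 h. The rise from 24 to 48 h in the TGFβ arm held for 0 to 1 gene, the gain from 24 to 48 h for 0 to 2, the gain from 0 to 8 h for 5 to 10 and the loss for 1 to 2. At adjusted p below 0.05 the genes higher at 24 h were 33.

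Same-numbered libraries were not treated as pairs in the main fit. Their deviations correlated positively at 0 h (0.069 to 0.30) and at 24 h (0.095 to 0.31). At 8 h the correlations ran from -0.048 to -0.011 and at 48 h from -0.014 to 0.096. Of the 12 correlations 4 were over 0.1, and 12 of 24 libraries correlated best with their own number. With the replicate block 31 genes were higher at 24 h in place of 30, and the gain from 24 to 48 h was called for 2 genes in place of 1, PHGDH being the other.

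Without the 4 libraries that stand apart together, an alternative chosen after seeing the data, the gain from 24 to 48 h was likewise called for 2 genes, and no called arm difference at 8, 24 or 48 h was lost.

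DESeq2 gave no F-test value. ALDH1L2, with group means of at most 0.463 TPM, was the member with the least reads behind it. Leaving out 1 library leaves 2 in its group, whose spread is taken as that of the other groups.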

Other observations

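Transcripts of single genes were estimated by kallisto from shared exons and were not tested between the arms. The MTHFD2 signal was carried mostly by MTHFD2-205, annotated as a nonsense-mediated decay transcript, which held 51.7% of the gene's TPM in untreated and 51.5% in stimulated cells at 24 h, while the canonical MTHFD2-201 held 14.1% and 12.5%. The ATF4 signal came from the protein-coding ATF4-202, with 97.8% and 98.8% at 24 h. CHAC1 rested on CHAC1-203 for 95.8% of its TPM in untreated cells at 0 h and 64.8% at 48 h, against 95.4% and 92.2% in the TGFβ arm. The 64.8% rests on little signal, since CHAC1 averaged 2.29 TPM in untreated cells at 48 h, with CHAC1-201 and CHAC1-202 at 0.308 and 0.499 TPM. For ASNS the canonical ASNS-202 held 74.8% and 80.4% at 24 h, and for GPT2 the canonical GPT2-201 held 69.3% and 76.6%.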
